A study of Mus musculus with 8 samples.

Results

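Colonic B cells and the lymphoid follicles they form were examined through 9 genes, *Ms4a1*, *Cd79a*, *Cd79b*, *Cr2*, *Fcer2a*, *Pax5*, *Cd22*, *Blk* and *Ltb*. They were chosen by name among the 26008 genes of the deposited table, and all 9 were present and passed the filter on low values. The questions were whether these genes differed between *Penk*-/- and *Penk*+/+ chimeric mice, and whether single libraries carried more of them than the others.

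RNA-seq had been performed on colonic biopsies of 8 male chimeric mice, 4 of each genotype, and each mouse gave 1 library. Recipients were wild-type C57BL/6JRj males, lethally irradiated and engrafted at the age of 7 weeks. The *Penk*-/- group received bone marrow of male mice with a constitutive knockout of *Penk*, the proenkephalin gene, and the *Penk*+/+ group received bone marrow of wild-type males of matched age. Colons were taken 18 weeks after engraftment, in basal conditions. Irradiation, engraftment and the wild-type recipient were therefore common to both groups. Only cells that derive from the graft carried the deletion, as B cells, plasma cells and most leukocytes do, whereas epithelium, muscle, neurons and stromal cells remained those of the wild-type recipient. Leukocytes of the recipient that survive irradiation can persist beside the graft. *Penk* itself was measured in every library. Replicates 1 to 4 held 453, 512, 616 and 531 normalized counts of it in the *Penk*-/- libraries, against 473, 496, 560 and 636 in the *Penk*+/+ libraries (adjusted p = 0.957 in limma). In these bulk libraries, *Penk* does not check the genotype of the graft.

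A normalized count is the number of reads of a gene divided by a size factor of the library. The libraries held 33.1 M to 50.7 M reads. Markers of colonic epithelium were high in all 8 of them, with 48568 to 70453 normalized counts of the epithelial adhesion gene *Epcam*. *Pbsn*, a secretory gene of the male accessory glands, stood at 105658 in *Penk*-/- replicate 3 and 111024 in *Penk*+/+ replicate 4, and between 0 and 13425 in the others. Its part in the results below was not tested, and the values without that pair of libraries are given with the comparison.

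B cells recognise antigen through a surface immunoglobulin that signals through CD79A and CD79B. In the intestine they gather with T cells and specialised stroma in Peyer's patches, colonic patches and isolated lymphoid follicles. Lymphotoxin from lymphoid cells acts on stromal cells, which then secrete CXCL13, the chemokine that draws B cells expressing CXCR5. After stimulation in the germinal centre of a follicle, many B cells of the gut switch to IgA and leave for the lamina propria as plasma cells, which have lost most B cell surface genes.

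The promoters of the members were read because these genes varied together between libraries, as shown further on. Windows of 250 bases before and 50 bases after the annotated start were taken from GRCm39 with GENCODE M39 and searched on both strands for 4 motifs. The octamer ATGCAAAT, bound by POU2F factors, was in 0 of the 9 windows and in 1.63% of the 21757 windows of protein-coding genes. The EBF motif CCCNNGGG was in 2 of the 9 windows, that of *Cd79b* and 1 that is not shown here, and in 15.1% of all windows. The ETS motif CAGGAAGT was in that of *Blk* and in 3.24% of all, and the NF-kB motif GGACTTTCC was in that of *Ltb* and in 0.349% of all. The windows of *Cd79b*, *Blk* and *Ltb* are printed 5′ to 3′ on the strand of the gene, with the match in capitals, since they show where these letters lie relative to the start.
Cd79b, chr11:106205539-106205838, minus strand: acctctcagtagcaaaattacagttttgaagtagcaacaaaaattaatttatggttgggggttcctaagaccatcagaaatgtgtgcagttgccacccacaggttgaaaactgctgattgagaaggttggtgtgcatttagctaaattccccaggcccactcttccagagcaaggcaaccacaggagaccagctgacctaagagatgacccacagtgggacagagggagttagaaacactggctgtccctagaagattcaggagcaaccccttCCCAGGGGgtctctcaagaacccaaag
Blk, chr14:63654538-63654837, minus strand: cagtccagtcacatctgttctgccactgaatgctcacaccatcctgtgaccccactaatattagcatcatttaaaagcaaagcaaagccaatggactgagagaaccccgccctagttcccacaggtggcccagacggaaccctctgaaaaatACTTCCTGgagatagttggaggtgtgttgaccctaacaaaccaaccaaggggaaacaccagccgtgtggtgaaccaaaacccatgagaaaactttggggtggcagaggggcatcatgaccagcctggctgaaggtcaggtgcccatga
Ltb, chr17:35413132-35413431, plus strand: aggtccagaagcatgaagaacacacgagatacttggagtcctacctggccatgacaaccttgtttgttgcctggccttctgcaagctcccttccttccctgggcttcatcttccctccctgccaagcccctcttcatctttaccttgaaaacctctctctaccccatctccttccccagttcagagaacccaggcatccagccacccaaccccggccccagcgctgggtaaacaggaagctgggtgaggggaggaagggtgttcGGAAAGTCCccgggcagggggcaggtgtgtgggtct
The match begins at position -98 from the start in *Blk*, before it, and at 24 in *Cd79b* and 15 in *Ltb*, after the start. The EBF and ETS motifs are short and frequent, and the matches describe letters and not binding. The 5 windows of *Cd79a*, *Cr2*, *Fcer2a*, *Pax5* and *Cd22* held none of the 4 motifs in these spellings.

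The B cell receptor genes were highest in the same library of each genotype. *Cd79a* (chr7:24596740-24601622, plus strand) encodes one signalling chain of the receptor. Replicates 1 to 4 held 79.8, 90.4, 82.1 and 285 normalized counts in the *Penk*-/- libraries, against 47.3, 284, 87.9 and 59.2 in the *Penk*+/+ libraries. Replicate 4 of *Penk*-/- and replicate 2 of *Penk*+/+ stood above all others, at nearly the same level, and the genotypes overlapped. *Cd79b* (chr11:106202167-106205588, minus strand), the partner chain, gave 43.4, 54.9, 69.8 and 221 in the *Penk*-/- libraries, against 42.3, 194, 67.5 and 30.0 in the *Penk*+/+ libraries. The same pair of libraries was highest, and the lowest value was that of *Penk*+/+ replicate 4. The *Cd79a* to *Cd79b* ratio of normalized counts stayed between 1.12 and 1.97 in the 8 libraries.

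The surface molecules of mature B cells were highest in the same pair of libraries, while the order below it differed between genes. *Ms4a1* (chr19:11227039-11243605, minus strand) encodes CD20 and is expressed from late precursors until plasma cell differentiation. It stood at 81.8, 120, 144 and 403 in *Penk*-/- replicates 1 to 4 and at 137, 339, 168 and 83.2 in *Penk*+/+ replicates 1 to 4. *Cd22* (chr7:30564827-30579767, minus strand), an inhibitory coreceptor, stood at 24.2, 93.9, 85.8 and 272 in the *Penk*-/- libraries, against 34.8, 263, 112 and 16.3 in the *Penk*+/+ libraries. Both were highest in *Penk*-/- replicate 4 and *Penk*+/+ replicate 2, and lower in *Penk*-/- replicate 1 and *Penk*+/+ replicate 4. *4930526L06Rik*, a long non-coding gene antisense to *Ms4a1*, was at 2.49 to 19.6 normalized counts, and its 2 highest values were in libraries other than the pair in which *Ms4a1* was highest. The strand setting used to count reads is not given in the sources used here.

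*Cr2* and *Fcer2a* belong both to B cells and to follicular dendritic cells, the stromal cells that hold antigen in follicles, so that in these chimeras their reads could come from the graft or from the recipient. *Cr2* (chr1:194819119-194859091, minus strand), the complement receptor CD21, was at 18.2, 92.7, 118 and 407 in *Penk*-/- replicates 1 to 4 and at 26.1, 388, 173 and 15.4 in *Penk*+/+ replicates 1 to 4. *Fcer2a* (chr8:3731737-3744183, minus strand), the low-affinity IgE receptor CD23, was at 9.09, 64.1, 71.2 and 198 in the *Penk*-/- libraries, against 14.9, 217, 54.2 and 6.86 in the *Penk*+/+ libraries. Between the highest and the lowest library, *Cr2* differed 26.3-fold and *Fcer2a* 31.6-fold, against 4.93-fold for *Ms4a1* and 6.03-fold for *Cd79a*.

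*Pax5* and *Blk* act inside the cell. *Pax5* (chr4:44524757-44710487, minus strand), the transcription factor that maintains B cell identity, was at 10.1, 67.5, 55.2 and 214 in *Penk*-/- replicates 1 to 4 and at 22.4, 221, 66.4 and 3.43 in *Penk*+/+ replicates 1 to 4. The lowest of these values rested on 4 reads, and the 64.3-fold difference between *Penk*+/+ replicates 2 and 4 was the largest of the 9 genes. *Blk* (chr14:63610285-63654587, minus strand), a Src family kinase of B cells, was at 8.08, 44.6, 33.4 and 102 in the *Penk*-/- libraries, against 6.22, 93.2, 35.8 and 7.72 in the *Penk*+/+ libraries. Its lowest library held 5 reads and was *Penk*+/+ replicate 1. Both genes were again highest in *Penk*-/- replicate 4 and *Penk*+/+ replicate 2.

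*Ltb* (chr17:35413382-35415296, plus strand), which encodes the membrane-anchoring subunit of lymphotoxin, varied least. It is expressed by B cells and also by T cells and innate lymphoid cells. Its normalized counts were 20.2, 22.9, 35.6 and 69.6 in *Penk*-/- replicates 1 to 4 and 28.6, 71.3, 34.8 and 23.2 in *Penk*+/+ replicates 1 to 4. The highest library of all was 3.53 times the lowest, and the highest library of each genotype was the same as for the other members.

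**Figure D1:**
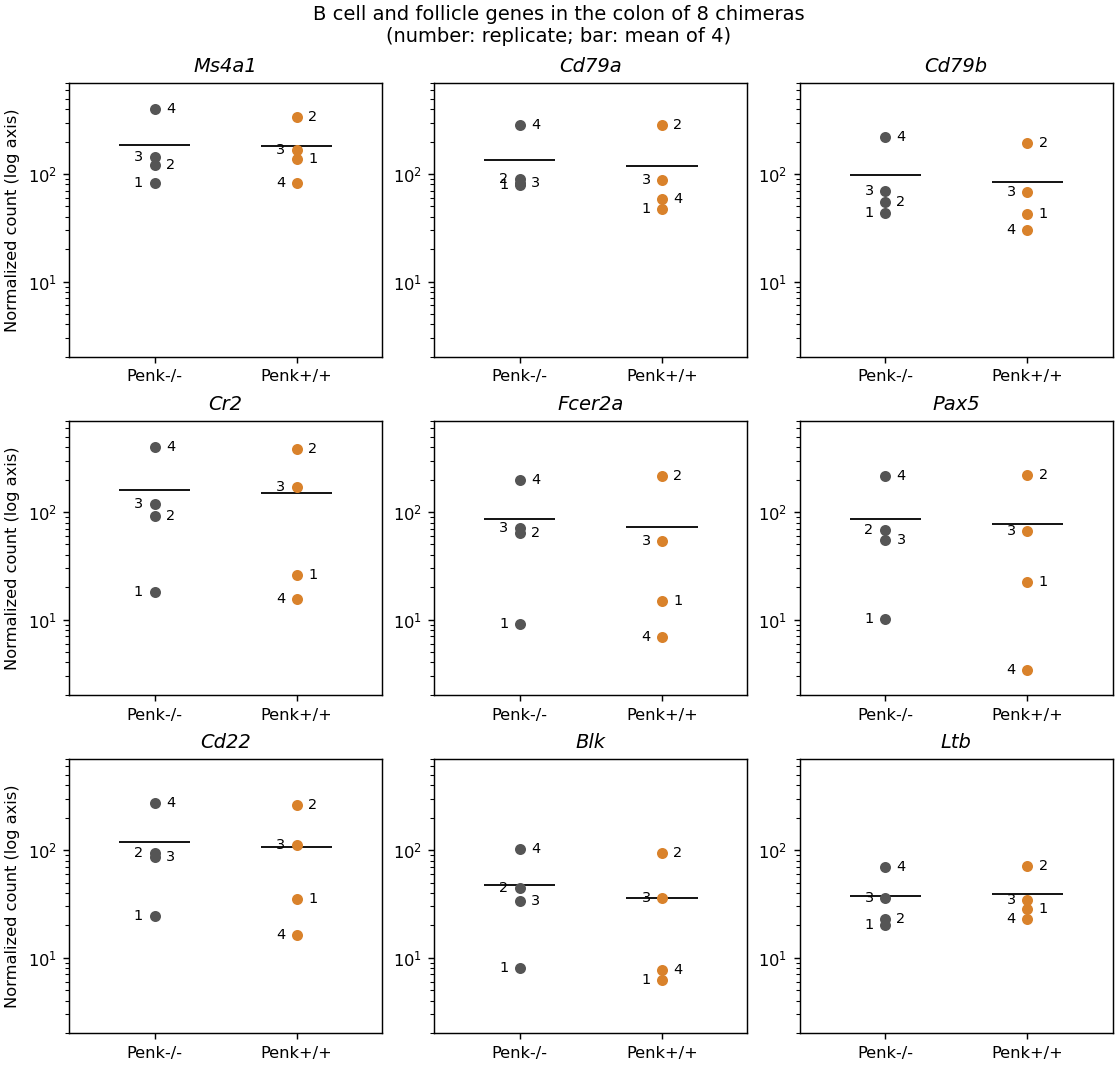
Normalized counts (log axis) of the 9 genes in each library, by genotype of the graft; each point is 1 mouse, labelled with its replicate number, and the bar is the mean of 4. *Penk*-/- replicate 4 and *Penk*+/+ replicate 2 are highest of their genotype for all 9 genes, and *Penk*-/- replicate 1 and *Penk*+/+ replicate 4 are among the 3 lowest libraries for all 9.

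No difference between the genotypes was detected in any of the 9 genes. By limma on log2(value + 1), 0 of 9 had an adjusted p or an unadjusted p below 0.05, where 0% and 9.63% of the 19127 genes tested did, and the genotypes overlapped for all 9, where 5.63% of genes did not overlap. The adjusted p of the members ranged from 0.860 to 0.990. The exact permutation p (two-sided, 4 against 4 libraries, smallest possible value 0.0286) ranged from 0.486 to 0.971.

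The group means lay close to each other beside their spread. *Ms4a1* was at 187 ± 146 normalized counts in *Penk*-/- chimeras and 182 ± 110 in *Penk*+/+ chimeras (SD, n = 4), which gave a log2 fold change of -0.04 (95% interval -1.21 to 1.13). *Pax5* was at 86.8 ± 88.5 and 78.2 ± 98.5 (SD, n = 4), with a log2 fold change of 0.64 and a 95% interval from -2.04 to 3.32. In both cases the SD was of the order of the mean. The fold change farthest from 0 was that of *Blk*, 0.69 with an SE of 0.93, for means of 47.0 ± 39.5 and 35.7 ± 40.6 (SD, n = 4). That of *Ltb*, -0.12, had the smallest SE, 0.44.

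*Cd79a* and *Cd79b* gave log2 fold changes of 0.31 (SE 0.58) and 0.28 (SE 0.63). For *Cr2* and *Fcer2a*, they were 0.38 (SE 1.13) and 0.66 (SE 1.11), and for *Cd22* 0.40 (SE 0.90). The estimate was above 0 for 7 genes and below 0 for 2, *Ms4a1* and *Ltb*, with a median of 0.38 against 0.01 over all genes tested. The sign of 8 of the 9 estimates, those other than *Blk*, turned when a single library was left out. The median of the 9 was 1.07 without *Penk*+/+ replicate 2, 0.996 without *Penk*-/- replicate 1, -0.15 without *Penk*-/- replicate 4 and -0.24 without *Penk*+/+ replicate 4. Without both *Pbsn*-rich libraries it was -0.24, and without the pair with the highest levels of the members it was 0.49. With 4 mice a group, true differences of any size within the 95% intervals remained possible.

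**Figure D2:**
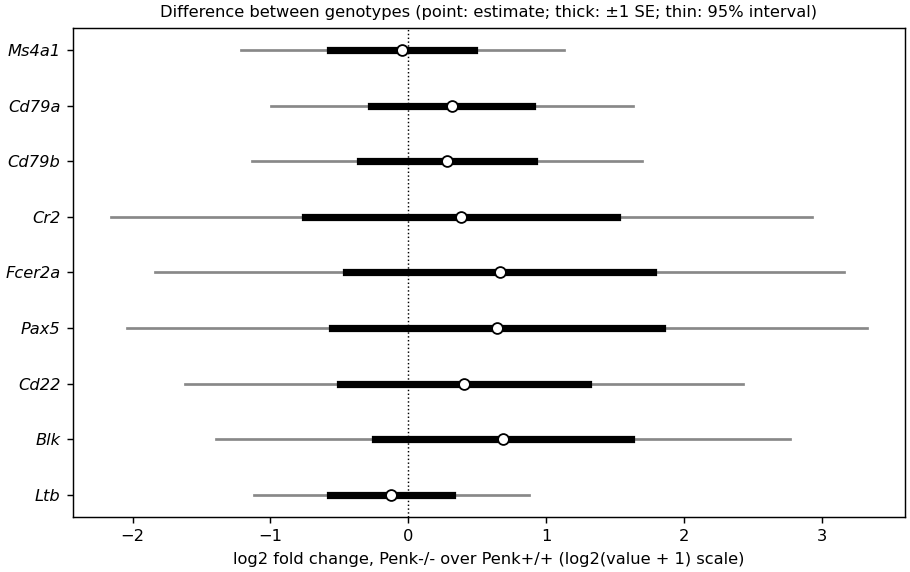
Difference between the genotypes for each gene, as the log2 fold change of *Penk*-/- over *Penk*+/+ on the log2(value + 1) scale; points are limma estimates over 4 and 4 libraries, thick bars 1 SE and thin bars the 95% interval. Every interval spans 0, and the sign of 8 of the 9 estimates turns when a single library is left out.

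The members varied more within a genotype than most genes. Their SE was 0.44 to 1.19 against a median of 0.14 over all genes tested, and their SD of log2 values within genotypes lay between the 96.0 and 99.5 percentiles of all genes. In *Penk*-/- chimeras, the highest library was 3.04 to 4.38 times the median of the other 3. In *Penk*+/+ chimeras it was 2.47 to 14.8 times that median. The members' values in *Penk*-/- replicate 4 were 0.912 to 1.19 times those in *Penk*+/+ replicate 2, so that the highest library of each genotype had nearly the same levels. Since the RNA came from whole biopsies, more B cells and more of these transcripts per B cell cannot be told apart.

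The mean of the 9 log2 values, each centred on the mean of its gene, placed the libraries in 3 tiers. It was 1.77 in *Penk*-/- replicate 4 and 1.72 in *Penk*+/+ replicate 2. It was 0.31 in *Penk*+/+ replicate 3, 0.19 in *Penk*-/- replicate 3 and 0.10 in *Penk*-/- replicate 2. It was -1.03 in *Penk*+/+ replicate 1, -1.35 in *Penk*-/- replicate 1 and -1.71 in *Penk*+/+ replicate 4. Each tier held libraries of both genotypes. Recovered reads scaled to the library total (CPM) gave 1.80 and 1.74 for the highest pair, and leaving out *Ltb* gave 1.87 and 1.80.

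The members kept different distances between the tiers. *Pax5* was 0.652 times *Ms4a1* in *Penk*+/+ replicate 2 and 0.532 times in *Penk*-/- replicate 4, but 0.123 times in *Penk*-/- replicate 1 and 0.0412 times in *Penk*+/+ replicate 4, in ratios of normalized counts. The ratio of *Cr2* to *Ms4a1* ranged likewise from 0.186 in *Penk*+/+ replicate 4 to 1.15 in *Penk*+/+ replicate 2. Thus *Ms4a1*, *Cd79a*, *Cd79b* and *Ltb* differed 3.53-fold to 7.36-fold between the highest and the lowest library, and *Cr2*, *Fcer2a*, *Pax5*, *Cd22* and *Blk* 16.3-fold to 64.3-fold. In the libraries of the lowest tier these last genes rested on 4 to 28 reads each.

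Per kilobase of annotated exon, the mean normalized count over the 8 libraries was highest for *Cd79a*, 83.4, and *Cd79b*, 63.1. It was 29.8 for *Ms4a1*, 25.6 for *Fcer2a*, 24.7 for *Ltb*, 22.4 for *Cd22* and 18.8 for *Cr2*. *Blk* had 14.8 and *Pax5*, the only transcription factor, 9.32. Each of these levels spanned at least 3.53-fold between libraries, and the ranges of all neighbours in this order overlapped. The genes shared the differences between libraries, so that overlap of these ranges does not decide their order within a library, which was not tested.

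Among the 36 pairs of members, the Pearson r of log2 values over the 8 libraries was 0.801 to 0.991 with a median of 0.914. These are descriptions of the same 8 libraries and carry no test. Each member also followed the mean of the other 8, from r = 0.884 for *Cd79a* to r = 0.992 for *Cd22*. Without the libraries at both ends, *Penk*+/+ replicate 4 and *Penk*-/- replicate 4, r was computed with the mean of all members, the gene itself included. It was 0.860 for *Cd79a* and 0.993 for *Cd22*, values that including the gene raises and that are not comparable with those above.

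The 10 other genes whose log2 values over the 8 libraries were most like the mean of the members were *Ikzf3* (r = 0.992), *Ighd* (0.986), *Gpr174* (0.984), *Fcmr* (0.978), *H2-Ob* (0.978), *Gm19951* (0.976), *Cd37* (0.975), *Fcrl1* (0.968), *Cxcr5* (0.966) and *Btla* (0.964). *Ikzf3* encodes the lymphoid transcription factor Aiolos, *Ighd* the constant region of IgD, *Fcmr* the IgM Fc receptor, and *Btla* an inhibitory receptor of B and T cells. Without the libraries at both ends, r for these 10 genes was 0.939 for *Cxcr5* and higher for the others. This is no separate support, since the genes were picked for their r over these same libraries. *Penk*+/+ replicate 2, with a mean level of the members of 1.72, also remained among the libraries used. Of the 19118 genes tested outside the members, 77 (0.403%) had an r above 0.9.

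Further genes of the B lineage, from a list of 20 of which 19 were tested (*Vpreb3* was below the filter), largely followed the members. In 15 of these 19 the 2 highest libraries were *Penk*-/- replicate 4 and *Penk*+/+ replicate 2, as in 9 of 9 members and in 2.67% of all genes tested. *Cxcr5*, the receptor of CXCL13, was at 10.1, 44.6, 34.2 and 106 in the *Penk*-/- libraries, against 7.47, 95.1, 23.5 and 3.43 in the *Penk*+/+ libraries, with a log2 fold change of 1.11 (SE 0.96). The genotypes overlapped.

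Of these 19 genes, 16 had an estimate above 0 and 3 below, with a median of 0.20, and none passed the adjusted threshold. *Blnk*, an adaptor downstream of the B cell receptor, was the only one with an unadjusted p below 0.05. It was at 3249, 2904, 2860 and 3012 in the *Penk*-/- libraries, against 4122, 3269, 3357 and 3637 in the *Penk*+/+ libraries, without overlap (log2 fold change -0.25, adjusted p = 0.406 in limma). Its levels were not those of the members, with r = -0.52 over the 8 libraries. *Ralgps2*, *Pou2af1* and *Ebf1*, singled out after their values were seen, did not have the top pair of the members either, and their r was -0.20, 0.10 and 0.45.

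**Figure D3:**
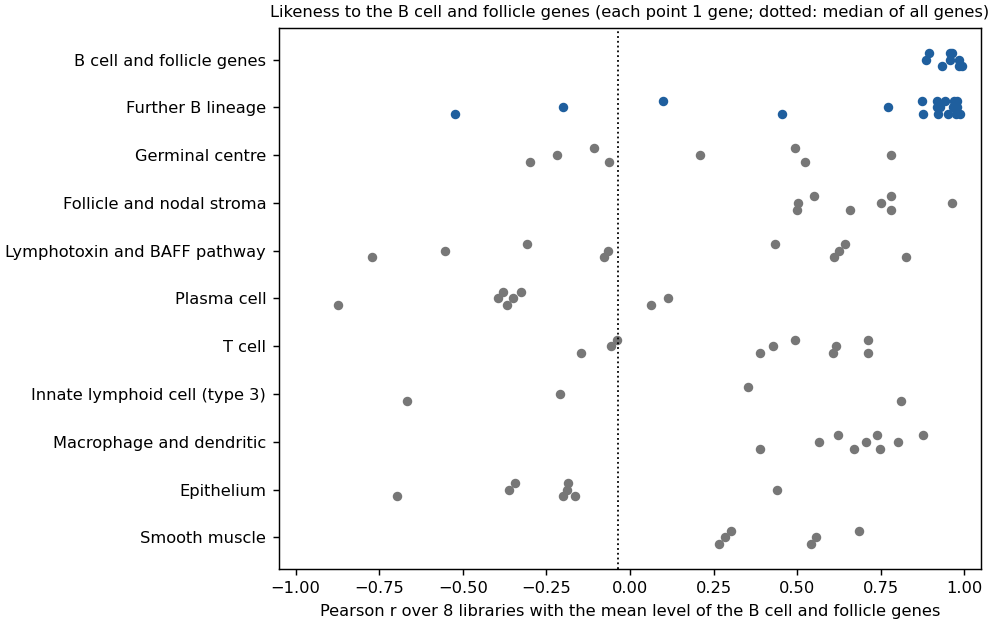
Pearson r over the 8 libraries between each gene and the mean level of the B cell and follicle genes (for a member, the mean of the other 8); each point is 1 gene, and the dotted line is the median of all genes tested. Members lie between 0.884 and 0.992 and 12 of the 19 further B lineage genes above 0.9, whereas the germinal centre genes have a median of 0.07 and the plasma cell genes a median of -0.36. Both of these last lists hold genes that other cells also express.

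Genes of follicle stroma and lymphocyte homing, a list of 11 with 8 tested, moved partly with the members, with a median r of 0.70. *Cxcl13* was at 129, 204, 348 and 373 in *Penk*-/- replicates 1 to 4 and at 142, 408, 261 and 248 in *Penk*+/+ replicates 1 to 4, highest in the same pair of libraries and 3.16 times the lowest at most. *Ccl21a*, a chemokine of lymphatic endothelium and T cell areas, was at 1343 to 2540 in all libraries. *Madcam1*, the vascular address of gut homing lymphocytes, was at 12.4 to 44.6, with its highest value in *Penk*-/- replicate 2.

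Genes of this list below the filter were scarce everywhere. *Glycam1*, a marker of high endothelial venules, was at 0, 0, 10.2 and 14.4 in the *Penk*-/- libraries, against 0, 6.66, 3.07 and 0.857 in the *Penk*+/+ libraries. *Ccl19* and *Ccr6*, singled out after their values were seen, were highest in *Penk*-/- replicate 4 (15.5 and 14.4) and *Penk*+/+ replicate 2 (15.2 and 10.5). *Ccl19*, a chemokine of T cell areas, was at 0 in 4 of the other 6 libraries. *Ccr6* is the receptor of CCL20 on B cells and innate lymphoid cells.

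*Ccl20*, secreted by the epithelium over follicles, was at 199, 160, 172 and 298 in the *Penk*-/- libraries, against 356, 840, 377 and 228 in the *Penk*+/+ libraries. Its highest libraries were again *Penk*+/+ replicate 2 and, among *Penk*-/- chimeras, replicate 4, and the other *Penk*-/- libraries lay below every *Penk*+/+ library (log2 fold change -0.99, SE 0.36, adjusted p = 0.449 in limma). The groups overlapped through *Penk*+/+ replicate 4 and *Penk*-/- replicate 4. *Gp2*, an M cell receptor, was at 10.1 to 63.4 with a log2 fold change of -0.89 (SE 0.52). Of the 8 genes tested, 4 were above 0 and 4 below, 1 passed the unadjusted threshold and none the adjusted one.

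The germinal centre genes, 8 tested of 9, had no common order with the members (median r 0.07, from -0.30 to 0.78). *S1pr2*, a receptor that retains B cells in germinal centres and is also made by other cells, stood at 315 ± 52.7 in *Penk*-/- chimeras and 244 ± 46.1 in *Penk*+/+ chimeras (SD, n = 4), with overlapping groups and an adjusted p of 0.504 in limma. Of the 8 genes, 4 were above 0 and 4 below, with a median of -0.02. Since the list holds genes that other cells of the biopsy also make, its median r is not that of germinal centre B cells alone.

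Genes of lymphotoxin and BAFF signalling, 10 tested of 11, were divided. *Lta*, the soluble subunit that pairs with LTB, was at 7.07, 10.3, 16.7 and 24.3 in the *Penk*-/- libraries, against 6.22, 50.4, 10.2 and 11.1 in the *Penk*+/+ libraries, and like *Ltb* was highest in the pair of libraries named above. *Ltbr*, the receptor on stromal and epithelial cells, was at 2912 to 3377, with r = -0.55. *Relb*, a transcription factor activated by this receptor, was at 1929, 1703, 1595 and 2009 in the *Penk*-/- libraries, against 2640, 2537, 2049 and 2295 in the *Penk*+/+ libraries.

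The genotypes did not overlap for *Relb* (log2 fold change -0.39, SE 0.10, adjusted p = 0.339 in limma, exact permutation p = 0.0286). *Traf3*, an inhibitor of the same pathway, did not overlap either (1770 to 1825 in *Penk*-/- chimeras and 1540 to 1729 in *Penk*+/+ chimeras, log2 fold change 0.14, adjusted p = 0.475 in limma). Both are expressed far beyond B cells, and neither followed the members, with r = -0.07 and -0.08. The unadjusted p of *Traf3* was below 0.05 in 2 of the 8 fits that each left out a library, and that of *Relb* in all 8. For *S1pr2* and *Ccl20* it was below 0.05 in 2 and 7 of these fits, and for *Blnk* in 8.

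**Figure D4:**
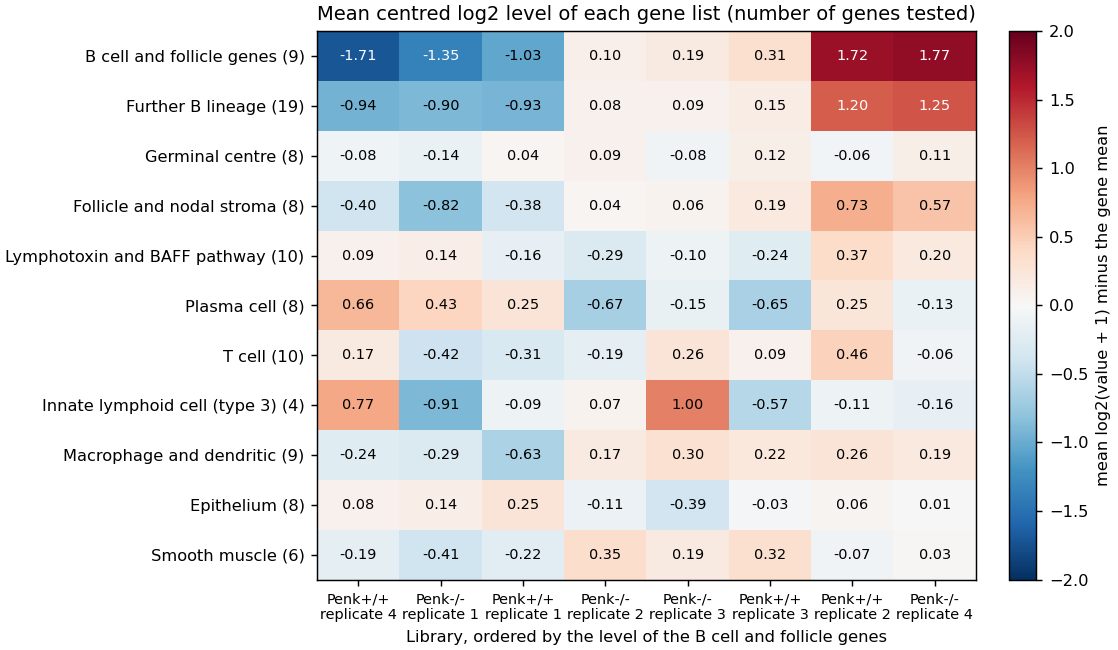
Mean over the genes tested of each list of the log2 normalized count minus the mean of the gene (log2 units), by library, with libraries ordered by the level of the B cell and follicle genes. The members run from -1.71 to 1.77 and the further B lineage genes from -0.94 to 1.25, the germinal centre genes only from -0.14 to 0.12. The germinal centre list holds genes that other cells also express.

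The plasma cell genes, 8 tested of 9, gave another order of the libraries, with a median r of -0.36. *Igha*, the constant region of IgA, was at 21422, 2968, 4627 and 7555 in the *Penk*-/- libraries, against 10292, 13200, 4152 and 16399 in the *Penk*+/+ libraries. *Jchain*, which joins IgA into dimers, was at 11521, 1266, 2197 and 3844 in the *Penk*-/- libraries, against 5629, 6566, 2248 and 7711 in the *Penk*+/+ libraries. Both were highest in *Penk*-/- replicate 1 and *Penk*+/+ replicate 4, in which the members were scarcest. The list was mixed, as *Xbp1*, *Sdc1* and *Derl3*, singled out after their values were seen, show. *Xbp1* and *Sdc1* varied 1.22-fold and 1.52-fold between libraries, against 7.22-fold for *Igha*. *Derl3* was at 861 in *Penk*-/- replicate 3 and 711 in *Penk*+/+ replicate 4, both *Pbsn*-rich, and at 29.6 to 177 in the others. The median r of the list is therefore not that of plasma cells alone.

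*Ighm*, taken up here after its values were seen, and *Ighd* are the constant regions of the immunoglobulins of naive B cells. The ratio of *Ighd* to *Ighm* was 0.329 in *Penk*-/- replicate 4 and 0.461 in *Penk*+/+ replicate 2, and 0.0633 in *Penk*-/- replicate 1 and 0.0390 in *Penk*+/+ replicate 4. The ratio of *Igha* to *Ighm* was 67.1 and 28.7 in these last libraries, and 5.35 and 12.2 in the former. It was 31.9 in *Penk*+/+ replicate 1, also of the lowest tier. In the middle tier it was 4.97 and 5.83 in *Penk*-/- replicates 2 and 3, and 6.07 in *Penk*+/+ replicate 3. All values of the middle tier thus lay below that of *Penk*+/+ replicate 2, and the ratio did not fall steadily as the members rose. *Igha* and *Jchain* had log2 fold changes of -0.51 (SE 0.60) and -0.59 (SE 0.63) with overlapping genotypes.

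*Prdm1*, the transcription factor of plasma cell differentiation, which epithelial cells and T cells also express, was lower in each *Penk*-/- library. Its values were 198, 189, 162 and 172 in the *Penk*-/- libraries, against 275, 324, 336 and 209 in the *Penk*+/+ libraries (log2 fold change -0.64, SE 0.16). It did not pass the adjusted threshold (adjusted p = 0.339 in limma, exact permutation p = 0.0286), and its r with the members was 0.11. Of the 8 plasma cell genes, 2 were above 0 and 6 below.

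**Figure D5:**
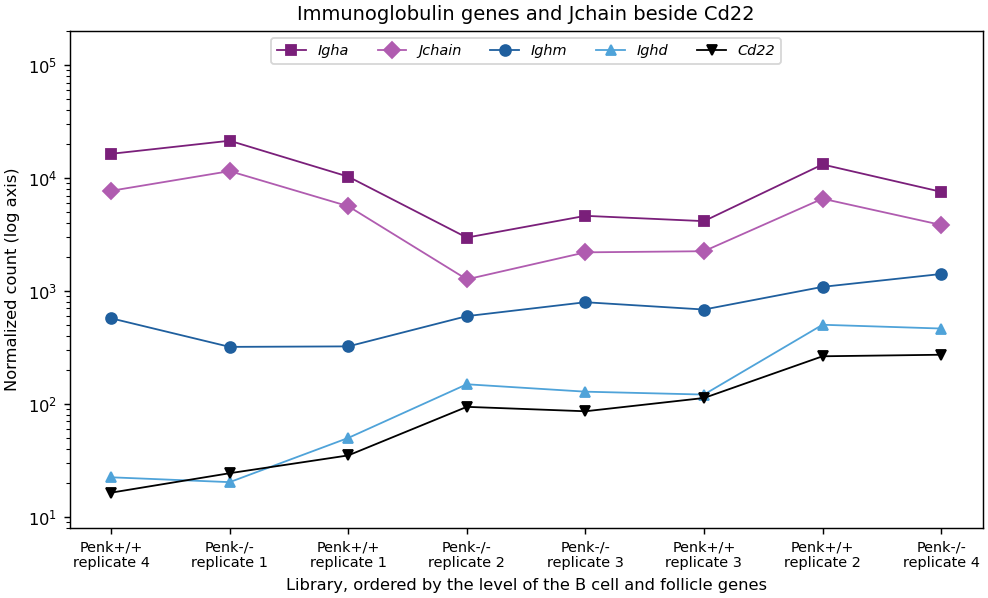
Normalized counts (log axis) of immunoglobulin constant region genes and *Jchain* beside the member *Cd22*, by library in the order of the members' level; each point is 1 mouse. *Ighd* is at 20.2 and 22.3 in the libraries with the least *Cd22* and at 464 and 501 in those with the most, whereas *Igha* is highest in *Penk*-/- replicate 1, at 21422.

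Markers of the other cells of the biopsy followed the members less closely. The 10 T cell genes had a median r of 0.46, and *Cd3e*, a chain of the T cell receptor complex, was at 6.06, 18.3, 16.0 and 23.2 in the *Penk*-/- libraries, against 21.2, 28.5, 32.7 and 22.3 in the *Penk*+/+ libraries. The 9 macrophage and dendritic cell genes had a median r of 0.71, the mean level of this list ranged from -0.63 to 0.30, and its lowest libraries were the 3 of the lowest tier of the members. The 8 epithelial genes had a median r of -0.19, with a mean level of -0.39 to 0.25, and the 6 smooth muscle genes had a median r of 0.42. The epithelial level was highest in the same 3 libraries, at 0.25 in *Penk*+/+ replicate 1, 0.14 in *Penk*-/- replicate 1 and 0.08 in *Penk*+/+ replicate 4. The smooth muscle level was lowest in them, at -0.22, -0.41 and -0.19 in that order. All genes of these 4 lists were above 0 in the 8 libraries. The estimate of the genotype difference was above 0 for 2 of the T cell, 8 of the macrophage and dendritic cell, 1 of the epithelial and 4 of the smooth muscle genes, and none had an unadjusted p below 0.05. The part of the cellular makeup of the biopsies in the levels of the members was not tested.

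Over the 11 related lists, 6 of the 93 genes tested (6.45%) had an unadjusted p below 0.05, against the 9.63% of all genes given above, and 0 passed the adjusted threshold. For 5 of the 93 the genotypes did not overlap, a share near the 5.63% of all genes tested. These were *Blnk*, *Relb*, *Traf3*, *Prdm1* and the death receptor gene *Fas*, which was at 404 to 440 in *Penk*-/- chimeras and 466 to 485 in *Penk*+/+ chimeras.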

How the data were processed

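Colonic RNA from 8 chimeric mice (4 *Penk*-/-, 4 *Penk*+/+, 1 library each) was sequenced after poly-A selection with a stranded paired-end kit. According to the submitters' processing notes, the authors used FastQC, STAR 2.7.8a and DESeq2 1.30.0 on GRCm39, with the Ensembl 107 annotation. The authors deposited 1 signal value per gene and mouse, a normalized count, that is reads divided by a size factor of the library. Dividing by the smallest step of a library gave whole numbers for 100% of the genes (within 0.01), taken as reads (33.1 M to 50.7 M, median 38.5 M). PCR duplicates were not marked by molecular identifiers, so that read numbers give counting error only. Libraries differed from each other by more than sampling noise (smallest chi-square per degree of freedom 11.2).

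Groups were taken from the labels. The genotypes were compared with limma 3.58.1 (R 4.3.3, trend, two-sided, no covariate) on log2(value + 1) for the 19127 genes with a mean of at least 10, with Benjamini-Hochberg adjustment and a threshold of 0.05. Fold changes on this scale understate those of low genes. Exact permutation tests ran over the 70 assignments of the libraries. Levels of lists are means of centred log2 values, and likeness is the Pearson r over 8 libraries. Of 26008 identifiers, 25776 matched GENCODE M39, which gave names, positions and exon lengths. Other steps were run in Python 3.11.15 (with scipy 1.17.1, numpy 2.4.6 and pandas 2.3.3).

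The members and the related lists were chosen with earlier results of these data known. Named genes are the 9 members, the 3 genes of smallest p and set defining markers of each list, and the 10 genes most like the members. Other genes are said to have been singled out after their values were seen. Same-numbered libraries are different mice, and their deviations from the group means correlated with r of 0.15, -0.04, -0.32 and -0.16, so the numbers do not pair them. Alternatives were a pseudocount of 0.1 or 8, a filter at 50 or none, no trend, quantile normalization, a block for the replicate number, each library left out, and both *Pbsn*-rich libraries left out. Leaving out the pair with the highest levels of the members, and edgeR 4.0.16, voom and DESeq2 1.42.0 on the recovered reads of 7 libraries, were chosen after seeing the data. Some genes of the lists and 1 promoter window are not reported here.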

Additional observations from a re-analysis of the deposited data

Results flagged for a closer look

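Of 42 groups of 4 libraries examined, 2 had a library far from the others, where chance gives about 1 in 20 independent groups, or 2.1. Single genes were examined on normalized counts and lists on log2 levels. The groups come from the same libraries and the members varied together, so that 2.1 does not measure chance here. *Cd79a* was at 285 normalized counts in *Penk*-/- replicate 4 and at 79.8 to 90.4 in the other 3 *Penk*-/- libraries, so that the gap to the nearest took up 0.948 of the whole range, above Dixon's critical value at the 95% level. *Cd79b* was at 221 in the same library and at 43.4 to 69.8 in the others, with a gap of 0.852 of the range. For the other members, *Penk*-/- replicate 4 and *Penk*+/+ replicate 2 were also highest, with gaps that stayed under the limit. That of *Cd79a* in *Penk*+/+ replicate 2 was also under it, but by less than 0.001.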

How the results depend on the processing

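No member passed the unadjusted or the adjusted threshold under any of the alternatives run. Limma called 0 of 19127 genes at an adjusted p below 0.05 (1842 at an unadjusted p). The adjusted count was 1 with quantile normalization, 1 with the replicate block, 0 to 6 with each library left out (6 without *Penk*-/- replicate 1), and 5 by edgeR, 6 by voom and 360 by DESeq2 on the recovered reads of 7 libraries, fits chosen after seeing the data. The cause was not tested. The unadjusted count was 2938 with the replicate block, 989 without the pair of libraries with the highest levels of the members, which leaves fewer samples, and 1383 to 2222 with each library left out. The signs of single members were not stable. *Ms4a1* and *Ltb* turned to 0.29 and 0.11 by edgeR, 0.25 and 0.10 by voom, and 0.29 and 0.11 by DESeq2, all without *Penk*-/- replicate 1, and limma without that library gave 0.26 and 0.10. Without both *Pbsn*-rich libraries, *Fcer2a* was at -0.18, *Pax5* at -0.36, *Cr2* at -0.44, *Cd22* at -0.24 and *Cd79b* at -0.023. With each library left out, log2 fold changes ranged from -0.50 to 0.32 for *Ms4a1*, -0.12 to 0.85 for *Cd79a*, -0.22 to 0.81 for *Cd79b*, -0.34 to 1.18 for *Cr2*, -0.057 to 1.54 for *Fcer2a*, -0.35 to 1.53 for *Pax5*, -0.24 to 1.07 for *Cd22*, 0.16 to 1.39 for *Blk* and -0.48 to 0.20 for *Ltb*. Count tests planned on all 8 libraries were not run, because the step of *Penk*-/- replicate 1 (1.01 normalized counts a read) lies so close to 1 that its recovered reads were not accepted for count models. The read numbers printed for that library rest on the same step. Reads were fewest for *Pax5*, *Blk* and *Fcer2a*, with 4, 5 and 8 in their lowest libraries.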
